A study of Mus musculus with 9 samples.

Results

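Kinetochores are the protein assemblies that join each chromosome to the spindle in mitosis, and they are built on centromeres marked by the histone variant CENP-A. An inner layer of CENP proteins sits on this chromatin, and an outer layer, the KMN network, holds the microtubule. Most hepatocytes of an adult liver are quiescent, and many are polyploid. After partial hepatectomy the remaining hepatocytes enter the cell cycle, which requires new kinetochore proteins for each division.

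The transcripts of 34 kinetochore and centromere genes were followed in bulk RNA-Seq of whole mouse liver. The members were the rows of the count table that carry the names of these genes, 34 of 43346 genes in all. All 34 passed the filter on low counts and were among the 15024 genes tested. They comprised 12 inner kinetochore genes, 2 genes of the corona (*Cenpe* and *Cenpf*), 8 of the KMN network, 3 of the Ska complex, 3 grouped here as *Zwilch*, *Zw10* and *Zwint*, 3 chromosomal passenger genes and 3 that load CENP-A.

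The libraries came from WT mice of the strain labelled C57/BL6, 12 weeks old and, per the methods of the study, male. All underwent 70% partial hepatectomy. Baseline was the liver removed at surgery (0 h) from vehicle-treated mice, the vehicle-treated group was the liver remnant 40 h after surgery, and the NSC-treated group was the remnant at 40 h from mice given NSC-87877, an inhibitor of the phosphatases SHP1 and SHP2. NSC was given at 7.5 mg/kg per dose, 15 mg/kg per day, from 12 h before surgery per the labels, and control mice received normal saline. Each group held 3 livers. There was no sham surgery and no NSC-treated baseline in the comparisons. The surgery itself, the time since surgery and the repeated injections therefore cannot be told apart from regeneration. Per the methods, the median lobes and the left lateral lobe were removed, and the remnant was the lobes left behind. Lobe cannot be told apart from regeneration either. The labels do not say whether a baseline specimen and a 40 h remnant of the same number came from the same mouse, and the p-values measure the spread between these livers.

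The libraries held 23997363 to 42887589 counts. The hepatocyte markers were abundant in all 9, with a summed FPKM (fragments scaled by gene length and by library total) of 58324 to 59916 at baseline and 48260 to 62593 at 40 h. All 5 had lower estimates at 40 h in both comparisons with baseline (median log2 fold change −0.77 with vehicle and −0.72 with NSC), 2 of them (*Cyp2e1* and *Serpina1c*) at an adjusted p under 0.05 in edgeR, and none was called. Their part in the results below was not tested. Expression of a gene is given below as CPM, counts scaled by library size after normalization by trimmed mean of M values (TMM). A gene was called changed at a Benjamini-Hochberg adjusted p under 0.05 over all genes tested and an absolute log2 fold change above 1.5 in edgeR's quasi-likelihood test. In whole liver, a change in the share of cells that transcribe a gene and a change in RNA per cell cannot be told apart.

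The promoters of genes used in mitosis are known for 2 short elements, CCAAT boxes bound by NF-Y and the element TTTGAA (the cell cycle genes homology region, CHR) bound by MuvB complexes, and genes of the G1/S transition for E2F sites. RefSeq promoter windows (GRCm38.p6, 250 bases before to 50 after the gene's start) matched 29 of the 34 members, and were missing for *Zwilch*, *Nsl1*, *Incenp*, *Ska1* and *Spc24*. The stretch from 100 bases before to 50 after the start is shown for 7 of them, 5 with TTTGAA near the start, *Cenph* with an E2F-like site, and *Zwint*, whose transcript level was nearly the same at baseline and at 40 h with vehicle. Capitals mark the letters of the CHR (TTTGAA), of the NF-Y element (CCAAT) or of an E2F-like site (TTCCCGC) on either strand, and each sequence reads 5′ to 3′ on the strand of its gene.
Cenpa, the centromeric histone (chr5:30666786-30666935, plus strand): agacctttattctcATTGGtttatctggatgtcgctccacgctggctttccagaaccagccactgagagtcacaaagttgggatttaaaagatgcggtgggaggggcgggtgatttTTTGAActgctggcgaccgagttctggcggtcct
Cenpf, corona (chr1:189688037-189688186, minus strand): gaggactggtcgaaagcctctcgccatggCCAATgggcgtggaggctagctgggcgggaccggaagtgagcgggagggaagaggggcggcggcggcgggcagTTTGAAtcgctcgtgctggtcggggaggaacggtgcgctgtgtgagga
Spc25, KMN network (chr2:69206164-69206313, minus strand): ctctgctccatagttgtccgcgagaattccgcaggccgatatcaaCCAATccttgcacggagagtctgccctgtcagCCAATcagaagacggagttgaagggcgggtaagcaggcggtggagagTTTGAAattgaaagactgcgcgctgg
Ndc80, KMN network (chr17:71526808-71526957, minus strand): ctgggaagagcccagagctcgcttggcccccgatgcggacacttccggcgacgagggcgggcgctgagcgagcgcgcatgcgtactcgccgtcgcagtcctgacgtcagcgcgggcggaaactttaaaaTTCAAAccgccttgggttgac
Oip5, CENP-A loading (chr2:119618456-119618605, minus strand): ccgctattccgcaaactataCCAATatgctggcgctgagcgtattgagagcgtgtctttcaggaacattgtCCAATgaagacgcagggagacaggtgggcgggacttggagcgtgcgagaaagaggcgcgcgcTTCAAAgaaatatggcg
Cenph, inner kinetochore (chr13:100775850-100775999, minus strand): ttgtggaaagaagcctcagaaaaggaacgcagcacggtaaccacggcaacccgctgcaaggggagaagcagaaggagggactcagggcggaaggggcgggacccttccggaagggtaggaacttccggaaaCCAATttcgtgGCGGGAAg
Zwint, kinetochore scaffold partner (chr10:72654746-72654895, plus strand): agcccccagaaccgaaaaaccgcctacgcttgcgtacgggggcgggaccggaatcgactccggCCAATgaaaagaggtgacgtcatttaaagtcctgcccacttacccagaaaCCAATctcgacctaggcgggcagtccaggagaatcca

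The CHR element TTTGAA was present in the 300-base window of 13 of 29 members (44.8%), against 20.2% of 27025 genes with such a window. Within the 150 bases nearest the start it was present in 10 members (34.5%) against 9.23% of genes. CCAAT occurred in 19 members (65.5%) against 41.1% of genes, and the E2F-like TTCCCGC in 8 (27.6%) against 5.29%. The related TTCGAA was found in 2 members, *Cenpm* and *Mis18a* (6.90% against 1.80%) and neither held TTTGAA. A further related form, TTTAAA, which is not in capitals above, was found in 8 members (27.6% against 14.9%). *Cenpk* had more than 1 window, and a match in any window of a gene was counted. Its E2F-like match lay only in the last of them. In *Cdca8* and *Cenpw* the TTTGAA match shared 1 base with a match to the NF-Y element. These are letter matches and not measured binding. Matches were found in members with and without a call. In the 300-base window, TTTGAA was in 10 of the 23 matched members called in NSC-treated livers and in 3 of the 6 not called (*Hjurp*, *Pmf1* and *Zw10*), and CCAAT was in 15 of 23 and 4 of 6. Within the 150 bases nearest the start, TTTGAA was in 9 of 23 and 1 of 6 (*Hjurp*), and CCAAT in 14 of 23 and 3 of 6.

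To determine how these genes changed in normal regeneration, vehicle-treated remnants at 40 h were compared with baseline. Of the 34 genes, 25 rose, none fell and 9 were not called. Over all genes tested, 5.03% were called higher. With the adjusted p alone, 28 members were higher, against 12.7% of all genes, and 32 lay above baseline in every vehicle-treated liver with no overlap of the groups, against 24.2%. The exceptions to the last count were *Zwint* and *Pmf1*. The median log2 fold change of the members was 3.22 (0.06 to 6.90), and that of all genes tested was 0.01.

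**Figure D1:**
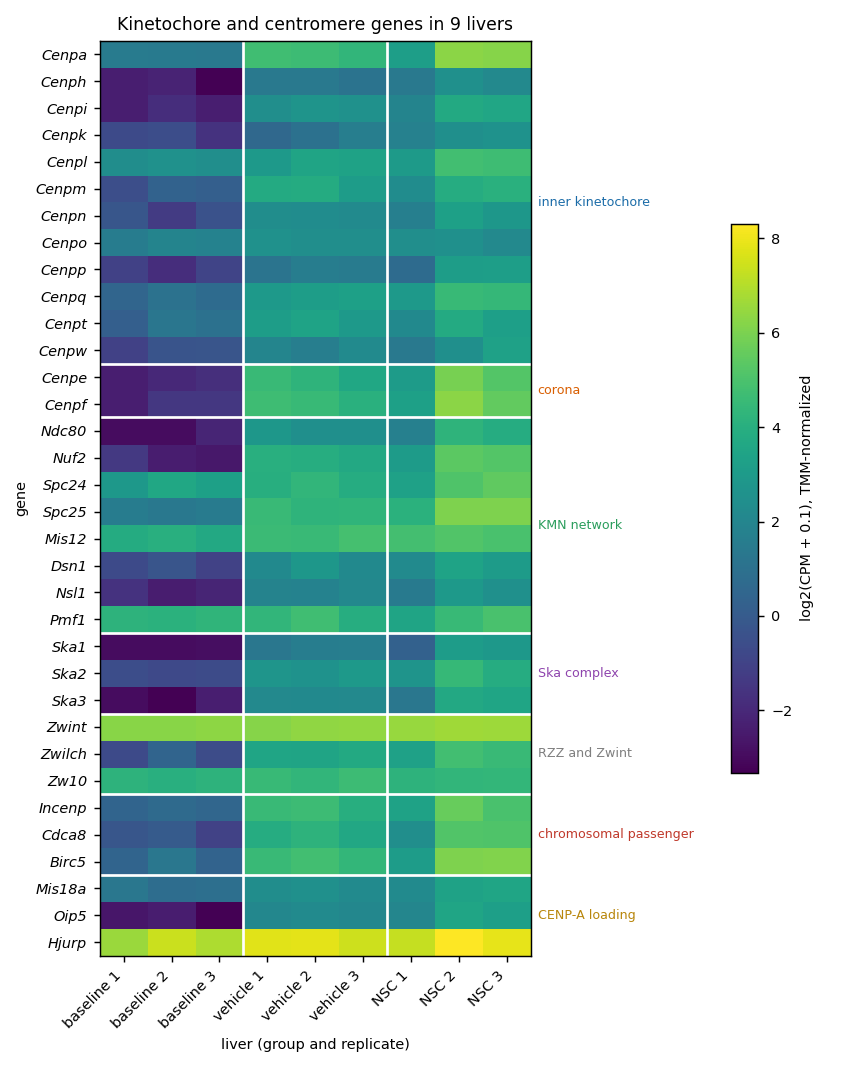
Expression of the 34 genes (rows, grouped by complex) in each of the 9 livers (columns) as log2 of TMM-normalized CPM plus 0.1, on the color scale. Most rows are dark in the 3 baseline livers and brighter at 40 h, while *Zwint* (74.5 to 99.6 CPM) and *Zw10* hardly differ between baseline and 40 h. *Pmf1* varies at 40 h on both sides of its baseline level (10.8 to 30.9 CPM against 17.4 to 19.7). NSC replicate 1 is darker than NSC replicates 2 and 3 in most rows.

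The corona genes had the largest log2 fold change of all members. *Cenpe* (ENSMUSG00000045328, chr3:135212563-135273540) encodes the kinesin that carries chromosomes along microtubules. It had 0.0948, 0.153 and 0.198 CPM in the baseline livers and 23.5, 18.6 and 12.3 in the vehicle-treated livers, a log2 fold change of 6.90 ± 0.94 (SE, adjusted p = 0.00224). *Cenpf*, a large coiled-coil protein of the outer kinetochore, went from 0.0948, 0.275 and 0.264 CPM to 26.0, 22.7 and 16.6 (6.66 ± 0.95, adjusted p = 0.0028). For both genes the lowest vehicle-treated liver was far above the highest baseline liver.

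In the KMN network, 5 of 8 genes rose. The Ndc80 complex makes the microtubule contact. *Ndc80* had 0.0316, 0.0305 and 0.132 CPM at baseline and 7.08, 5.52 and 5.46 with vehicle. *Nuf2*, its dimer partner, had 0.284, 0.0916 and 0.066 CPM at baseline and 16.3, 15.2 and 12.8 with vehicle, the largest change of the network at 6.61 ± 0.81 (SE, adjusted p = 0.00114). The groups of both genes were widely separated. The other dimer of this complex was uneven, as *Spc25* rose (2.96 ± 0.48, adjusted p = 0.00341) while *Spc24* had 7.36, 12.0 and 9.60 CPM at baseline and 15.5, 20.4 and 14.8 with vehicle (0.81 ± 0.48, adjusted p = 0.259). The Mis12 complex, which links the outer to the inner layer, was also uneven. *Dsn1* (3.27 ± 0.38) and *Nsl1* (4.63 ± 0.47) rose. *Mis12* differed by 0.84 ± 0.16 (adjusted p = 0.00294), short of the fold threshold. *Pmf1* had 18.04, 17.4 and 19.7 CPM at baseline and 20.3, 26.7 and 14.9 with vehicle, so that the groups overlapped (0.17 ± 0.33, adjusted p = 0.754).

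All 3 genes of the Ska complex, which tracks the ends of microtubules with the Ndc80 complex, rose. *Ska1* had 1 count in each baseline library and 94, 114 and 82 counts in the vehicle-treated libraries, a ratio of 86.7 with an exact 95% interval of 29.4 to 423 for counting error only. *Ska3* had 1, 0 and 3 counts at baseline and 176, 172 and 119 with vehicle (6.58 ± 0.88, adjusted p = 0.000925), which in CPM is 0.0316, 0 and 0.099 against 4.40, 4.46 and 4.39. *Ska2* had the smallest change of the complex, from 0.569, 0.489 and 0.528 CPM to 6.66, 5.96 and 7.79 (3.68 ± 0.42, adjusted p = 0.000235). The 3 vehicle-treated livers lay above the baseline livers for each gene.

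Among the 12 inner kinetochore genes, 10 rose, and every vehicle-treated liver was above every baseline liver for all 12. *Cenpa* (ENSMUSG00000029177, chr5:30666777-30674827) encodes the histone that marks the centromere. It had 2.75, 2.72 and 2.54 CPM at baseline and 26.5, 25.3 and 20.1 with vehicle (3.16 ± 0.73, adjusted p = 0.0192). The spread of the NSC-treated livers, described below, enters this standard error, and without NSC replicate 1 it was 0.16 (adjusted p = 1.12e-08). The call was lost with a replicate block and without vehicle replicate 1 or any 1 baseline replicate (edgeR adjusted p = 0.0526 to 0.0718), at a log2 fold change of 3.09 to 3.20. The largest change of the layer was that of *Cenpi* (5.48 ± 0.54, adjusted p = 0.0001), with 0.0948, 0.183 and 0.099 CPM at baseline and 5.26, 6.40 and 5.79 with vehicle. *Cenph*, of the same subcomplex, had 3, 4 and 0 counts at baseline and 99, 98 and 55 with vehicle. *Cenpm*, the most abundant of the layer by FPKM with vehicle, went from 0.60, 1.16 and 1.06 CPM to 13.6, 14.1 and 8.42 (3.68 ± 0.48).

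The 2 inner kinetochore genes that were not called were *Cenpo* and *Cenpl*. *Cenpo* had 2.84, 3.76 and 3.50 CPM at baseline and 5.78, 5.34 and 5.32 with vehicle, the smallest change of the layer (0.70 ± 0.21, adjusted p = 0.029). *Cenpl* differed by 0.83 ± 0.39 (adjusted p = 0.148), from 5.40 ± 0.35 to 9.61 ± 1.81 CPM (SD, n = 3). The remaining *Cenpk*, *Cenpn*, *Cenpp*, *Cenpq*, *Cenpt* and *Cenpw* rose by 2.25 to 3.09 on the log2 scale.

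The genes of the chromosomal passenger complex, which corrects wrong attachments with Aurora B, all rose. *Birc5* (survivin) had 1.23, 2.32 and 1.19 CPM at baseline and 23.8, 27.7 and 20.9 with vehicle (3.93 ± 0.79, adjusted p = 0.0114). *Incenp*, the scaffold, had 1.23, 1.53 and 1.32 CPM and 23.9, 25.0 and 15.7 (3.98 ± 0.54). *Cdca8* (borealin) had the largest change of the 3 at 4.45 ± 0.77 (adjusted p = 0.00571). None of the 3 overlapped between groups.

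The CENP-A loading genes split. *Oip5*, the mouse Mis18 beta subunit, had 2, 3 and 0 counts at baseline and 164, 179 and 112 with vehicle (6.25 ± 0.60, adjusted p = 7.55e-05). Its partner *Mis18a* had 2.34, 1.68 and 1.81 CPM at baseline and 5.16, 5.60 and 4.69 with vehicle. It differed by 1.40 ± 0.31 (adjusted p = 0.00764), short of the fold threshold. *Hjurp* (ENSMUSG00000044783, chr1:88262471-88277633), the chaperone that delivers CENP-A, was already abundant at baseline with 95.4, 164 and 120 CPM against 221, 230 and 171 with vehicle (0.72 ± 0.26, adjusted p = 0.0695). The vehicle-treated livers were above the baseline livers for *Hjurp*, but the lowest of them lay close to the highest baseline liver.

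Of the RZZ complex, which brings dynein and checkpoint proteins to unattached kinetochores, and its partner *Zwint*, only *Zwilch* rose (3.92 ± 0.44, adjusted p = 0.000318). *Zwint* (ENSMUSG00000019923, chr10:72654845-72674964) had 76.6, 76.6 and 80.0 CPM at baseline and 74.5, 82.7 and 85.9 with vehicle (0.06 ± 0.13, adjusted p = 0.771). *Zw10*, which also acts in vesicle transport, had 18.5, 16.1 and 18.3 CPM and 22.6, 19.9 and 25.4 (0.36 ± 0.14, adjusted p = 0.0894). The remaining RZZ subunit, *Kntc1*, was not a member and rose by 5.99 ± 0.43 on the log2 scale.

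**Figure D2:**
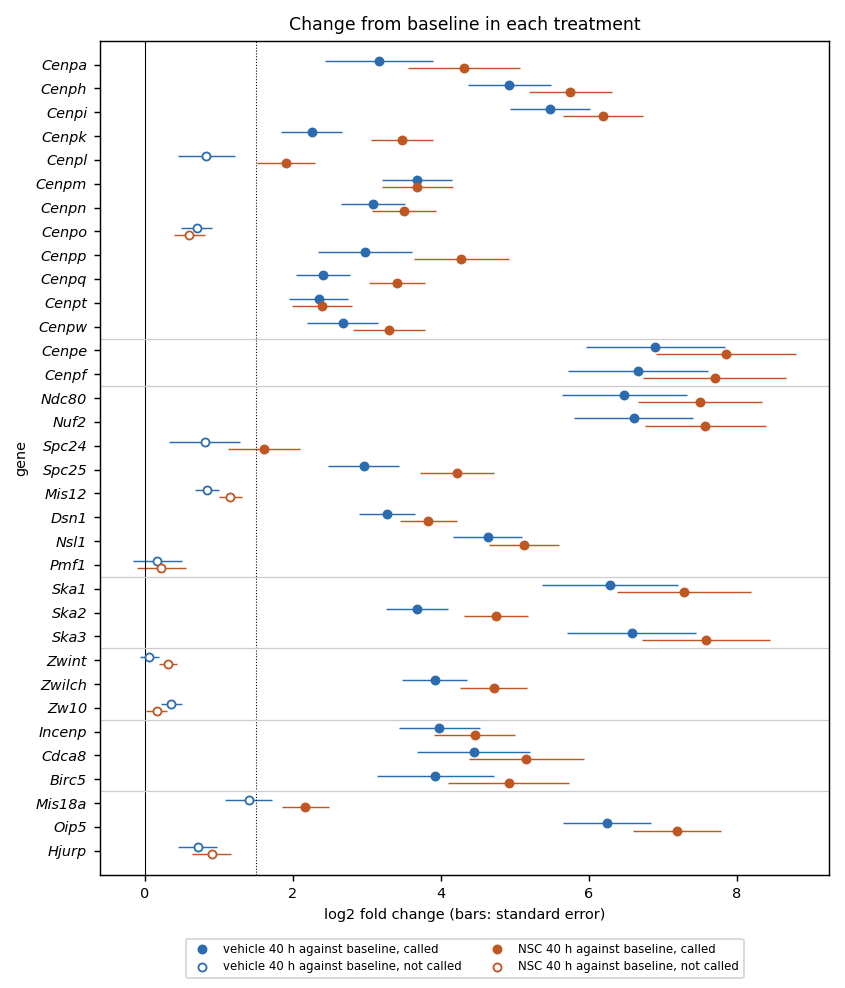
Log2 fold change of each gene (rows, grouped by complex) at 40 h against baseline, with vehicle in blue and NSC in orange, bars giving the standard error, filled points genes called and open points genes not called. The dotted line is the fold threshold of 1.5. The corona, *Ndc80*, *Nuf2*, *Ska1*, *Ska3* and *Oip5* lie farthest right (6.25 to 7.86), and *Zwint*, *Pmf1* and *Zw10* lie near 0.

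NSC-treated remnants were next compared with the same 3 baseline livers, so that this comparison shares its reference with the first. Here 28 of 34 genes rose and none fell, where 5.38% of all genes were called higher. With the adjusted p alone 31 members were higher, against 18.2% of all genes, and 30 were above baseline without overlap, against 24.0%. The median log2 fold change was 4.25 (0.16 to 7.86). The 25 genes called with vehicle were called here too, together with *Cenpl* (1.91 ± 0.39, adjusted p = 0.00482), *Mis18a* (2.17 ± 0.32, adjusted p = 0.000491) and *Spc24* (1.61 ± 0.48, adjusted p = 0.0328). *Spc24* overlapped between groups and lost its call with each baseline liver left out in turn and in further alternatives. The *Cenpl* value fell to 1.49 after correction for GC content. The genes not called were *Cenpo*, *Mis12*, *Pmf1*, *Zwint*, *Zw10* and *Hjurp*.

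By complex, 11 of 12 inner kinetochore genes, both corona genes, 6 of 8 KMN genes, 3 of 3 Ska genes, 3 of 3 passenger genes, 2 of 3 CENP-A loading genes and 1 of 3 in the RZZ and *Zwint* group rose with NSC. The largest changes were those of *Cenpe* (7.86 ± 0.95, adjusted p = 0.000916), *Cenpf* (7.70 ± 0.96), *Ska3* (7.59 ± 0.87), *Nuf2* (7.58 ± 0.81), *Ndc80* (7.51 ± 0.84), *Ska1* (7.29 ± 0.90) and *Oip5* (7.19 ± 0.60). For *Ska1*, with 37, 248 and 184 counts after NSC, the ratio to baseline was 168 (exact 95% interval 57.0 to 816). With the 3 members that had at most 3 counts in every baseline library set to that floor, the medians of both comparisons were 3.22 and 4.25. These 3 members lay above the medians at that floor too, so the medians could not move. With at least 10 counts required in every library, the medians over the 22 members left were 2.55 with vehicle and 3.36 with NSC.

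Whether NSC raised these transcripts above the vehicle response was examined in the direct comparison at 40 h. No member was called in this fit, and no gene of the whole table was called higher (0%). The study, with edgeR at the same thresholds, marked genes as upregulated and downregulated in this comparison. Its model is not stated, and the difference was not examined. The estimates were higher with NSC for 32 of 34 members, with a median log2 fold change of 0.80 (−0.20 to 1.30) against 0.02 for all genes. At an unadjusted p under 0.05, 8 members were higher, where 9.30% of all genes were. DESeq2 also called none, and gave 4 members (*Cenpk*, *Cenpl*, *Spc25* and *Ska2*) an adjusted p under 0.05, where 1.90% of all genes were higher by that rule. In 2 members, *Cenpk* and *Zwint*, each NSC-treated liver was above each vehicle-treated liver, where 10.3% of all genes were, so that this count is not above the background.

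The 8 genes were spread over 4 complexes. *Cenpk*, of the subcomplex of *Cenph*, had 1.43, 1.92 and 3.06 CPM with vehicle and 3.36, 5.54 and 5.95 with NSC, a difference of 1.22 ± 0.36 (SE, edgeR adjusted p = 0.124). *Ska2* had 6.66, 5.96 and 7.79 CPM with vehicle and 6.33, 21.9 and 14.8 with NSC (1.08 ± 0.35, adjusted p = 0.143). *Cenpq* differed by 1.00 ± 0.34 (adjusted p = 0.154), *Cenpl* by 1.08 ± 0.38 (adjusted p = 0.175) and *Cenpp* by 1.30 ± 0.53 (adjusted p = 0.219), all of the inner kinetochore. *Spc25* had 23.7, 18.9 and 19.5 CPM with vehicle and 17.0, 66.6 and 66.2 with NSC (1.27 ± 0.43, adjusted p = 0.176). *Mis18a* (0.76 ± 0.30, adjusted p = 0.198) and *Oip5* (0.95 ± 0.38, adjusted p = 0.202) are subunits of the Mis18 complex. The smallest adjusted p of the 8 was that of *Cenpk*.

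The NSC-treated livers were not alike. *Cenpa* had 9.15 CPM in NSC replicate 1, against 77.2 and 73.6 in replicates 2 and 3 and 20.1 to 26.5 in the vehicle-treated livers. *Birc5* had 8.46, 66.4 and 69.4 CPM in the 3 NSC-treated livers, *Cenpe* 8.28, 60.2 and 37.2, *Cenpf* 9.54, 78.6 and 46.2, and *Incenp* 10.5, 47.9 and 31.6. In each of these genes NSC replicate 1 was below all 3 vehicle-treated livers and the other 2 were above them. *Cenpm* had 4.95, 14.8 and 16.6 CPM in NSC replicates 1 to 3, *Spc24* 9.87, 34.2 and 44.6, and *Hjurp* 156, 318 and 236. *Mis18a* had 4.62, 10.5 and 11.2. The genes with the steadiest levels spread less, with 91.4, 99.6 and 98.7 CPM for *Zwint* and 18.3, 20.1 and 20.6 for *Zw10*, while *Pmf1* had 10.8, 22.6 and 30.9.

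This pattern held over much of the set. NSC replicate 1 was the lowest of the 6 livers at 40 h in 25 of 34 members, as it was in 24.6% of all genes tested. NSC replicates 2 and 3 were above all vehicle-treated livers in 30 members, as in 21.8% of genes. Both were true of 22 members and of 5.46% of genes. Each gene's log2 CPM was centered on its own mean across the livers, and the median of these values over the members was −2.45 to −2.23 in baseline livers, 0.82 to 0.95 in vehicle-treated livers, and 0.25, 2.30 and 1.93 in NSC replicates 1 to 3. For the chromosomal passenger genes it was 0.95 to 1.46 with vehicle and −0.14, 2.58 and 2.56 with NSC. The Ska genes gave 1.22 to 1.58 with vehicle and 0.72, 3.04 and 2.81 with NSC.

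**Figure D3:**
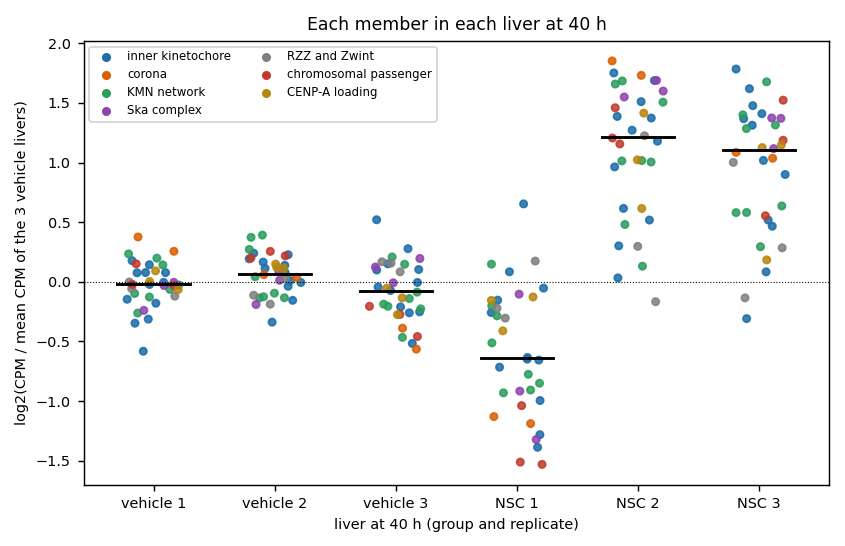
Level of each of the 34 genes (points, colored by complex) in each of the 6 livers at 40 h, as log2 of its CPM over the mean CPM of the 3 vehicle-treated livers, with a black line at the median of each liver. The vehicle-treated livers sit around 0, most genes of NSC replicate 1 lie below it, and most genes of NSC replicates 2 and 3 lie above it.

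Without NSC replicate 1 the direct comparison changed. Of the members, 21 were then higher with NSC at an adjusted p under 0.05, where 3.73% of all genes were, and 4 passed the fold threshold as well, where 0.559% did. These were *Cenpa* (1.65 ± 0.15, adjusted p = 8.2e-05), *Spc25* (1.68 ± 0.15), *Cenpp* (1.77 ± 0.27) and *Cenpf* (1.52 ± 0.26). The median of the members was 1.15. Without NSC replicate 2 it was 0.53, with 1 member (*Cenpk*) higher at an unadjusted p under 0.05, where 6.29% of all genes were. Without NSC replicate 3 it was 0.59, with 2 members (*Cenpk* and *Ska2*), where 8.60% of all genes were, so that neither count is above the background. The labels give no ground to leave out a liver, and all 3 are in the values above.

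Other measures also differed between the livers. The summed FPKM of the 5 macrophage markers was 128 in NSC replicate 1, against 63.8 and 71.8 in NSC replicates 2 and 3, 31.8 to 64.4 with vehicle and 34.3 to 49.8 at baseline. The 4 endothelial markers summed to 50.1 in NSC replicate 1, against 25.3 and 32.9 in the other NSC-treated livers, and the 4 stellate cell markers to 137 against 77.7 and 90.1. By gene, estimates were higher with NSC than with vehicle for 4 of 5 macrophage, 3 of 4 endothelial and 1 of 4 stellate markers. The stellate median log2 fold change was −0.35. The 5 hepatocyte markers summed to 53006, 53553 and 62593 in the NSC-treated livers. None of these 18 genes was called between NSC and vehicle, none was at 0 in all libraries, and at an unadjusted p under 0.05 edgeR gave 2 macrophage and 1 endothelial marker higher and 1 stellate marker lower. The part of these cell types in the differences was not tested. The lymphocyte markers summed to at most 1.51 FPKM at 40 h against 1.42 to 4.50 at baseline, the erythroid markers to at most 76.6 against 76.4 to 104, and the neutrophil markers to 13.5 to 32.7 against 2.94 to 12.0. The 4 cholangiocyte markers summed to 1.43 to 2.02 FPKM at baseline, 4.16 to 5.81 with vehicle and 2.90 to 3.45 with NSC, so that the treatments did not overlap, and 2 of the 4 were lower with NSC at an unadjusted p under 0.05 in edgeR with none called. Against baseline with vehicle, 1 macrophage and 2 cholangiocyte markers were called higher, and 2 lymphocyte and 2 erythroid markers lower. Against baseline with NSC, 1 macrophage, 1 neutrophil and 1 cholangiocyte marker were called higher, and 1 lymphocyte and 2 erythroid markers lower. The part of these markers in the differences was not tested either.

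Base composition moved with the direct comparison too. Across all genes, log2 fold change and GC content had a Spearman correlation of −0.56 in NSC against vehicle, −0.41 in NSC against baseline and −0.13 in vehicle against baseline, with livers shared by the comparisons. The median GC content of the members was 45.3% (35.8% to 55.9%), below the 49.7% of all genes tested. After a GC correction of each library the median difference between NSC and vehicle was 0.69. With a replicate block added as well, that median was 0.47. With the GC correction alone, 2 members (*Cenpk* and *Mis18a*) were higher at an unadjusted p under 0.05 in edgeR. By that rule 5.10% of all genes were higher, so that this count is close to the background.

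Levels of different genes were compared per gene length, by the deposited FPKM. At baseline 6 genes held most of the signal. *Zwint* (16.9 ± 0.525 FPKM, SD, n = 3), *Hjurp* (14.6 ± 4.05), *Pmf1* (13.1 ± 0.934), *Spc24* (6.91 ± 1.68), *Zw10* (5.87 ± 0.453) and *Mis12* (4.61 ± 0.521) together made up 87.1% to 87.4% of the summed FPKM of the 34. These genes were picked from their levels. Their share was 48.4% to 50.6% with vehicle, and 57.5%, 35.8% and 38.7% in NSC replicates 1 to 3. Every other member was at or near 1 FPKM or lower at baseline, with *Cenpa* the highest of them at 1.03 ± 0.0374.

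The summed FPKM of the members was 64.5 to 77.2 at baseline, 155 to 187 with vehicle, and 135, 347 and 342 in NSC replicates 1 to 3. *Cenpa* reached 9.34 ± 1.69 FPKM with vehicle and 22.3 ± 15.8 with NSC. *Cenpm* reached 9.76 ± 2.67 and 10.6 ± 5.38, and *Birc5* 6.89 ± 0.802 and 14.8 ± 10.5. *Nsl1* (0.692 ± 0.0848) and *Cenpo* (0.737 ± 0.0924) were the lowest with vehicle. NSC replicate 1 was the lowest of the NSC-treated livers for *Cenpa*, *Cenpm* and *Birc5*.

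**Figure D4:**
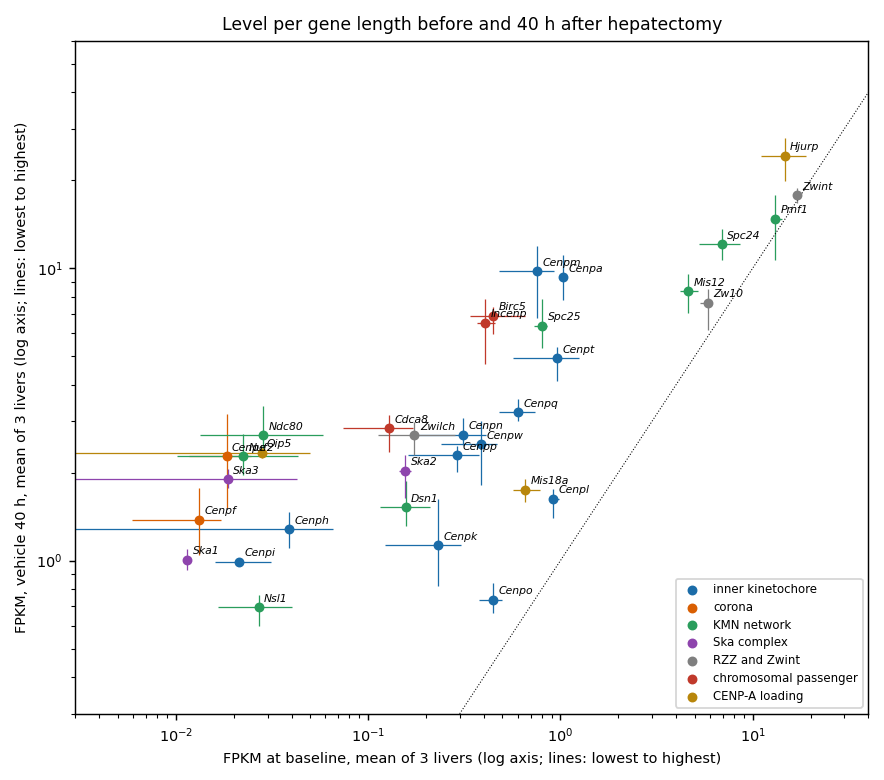
Mean FPKM of each gene in the 3 baseline livers (horizontal, log axis) against the 3 vehicle-treated livers at 40 h (vertical, log axis), with lines from the lowest to the highest liver and a dotted line of equal level. A horizontal line that reaches the left edge includes a liver at 0. *Zwint*, *Pmf1* and *Zw10* lie near the dotted line, while *Cenpe*, *Cenpf*, *Ndc80*, *Nuf2*, *Oip5*, *Ska1* and *Ska3* had baseline levels under 0.03 FPKM.

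Ratios of FPKM between subunits were compared across the livers at 40 h, and some pairs were steadier than others. *Nuf2* over *Ndc80* was 0.766 to 0.957 in the 6 livers, *Cenpf* over *Cenpe* 0.559 to 0.686 and *Cdca8* over *Birc5* 0.327 to 0.430, although the levels themselves differed several-fold between NSC-treated livers. *Ska3* over *Ska1* was 1.71 to 2.49. Other pairs varied more. *Ska2* over *Ska1* was 1.65 to 4.65, with the highest value in NSC replicate 1, *Incenp* over *Birc5* 0.481 to 1.31, *Cenpk* over *Cenph* 0.561 to 1.47 and *Spc24* over *Ndc80* 2.93 to 6.03. *Spc25* over *Spc24*, partners of 1 dimer, was 0.392 to 0.650 with vehicle and 0.628 to 0.824 with NSC. *Spc25* over *Ndc80* was 2.32 to 3.65 and *Cenpi* over *Cenph* 0.466 to 0.897 in the livers at 40 h. *Cenpm* over *Cenph*, of the same inner subcomplex, was 6.16 to 8.24 with vehicle and 2.95 to 5.64 with NSC, and these ranges did not overlap. In every other pair examined the ranges of the treatments overlapped. No background share was computed for such pairs, so this separation was not tested. *Cenpm* was also the member with the highest GC content (55.9%), and its difference between NSC and vehicle was 0.01 ± 0.41.

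Other genes of the pathway were taken from lists of general knowledge. Over all genes tested, 5.03% were called higher with vehicle and 5.38% with NSC. Of 11 further kinetochore and centromere genes, 7 rose with vehicle and 8 with NSC, and none fell. *Knl1*, the KMN scaffold that binds checkpoint kinases, had the largest change (7.34 ± 0.93 with vehicle and 8.43 ± 0.92 with NSC). *Cenpb* (−0.22 ± 0.13 and −0.15 ± 0.13), which binds centromeric repeats, and *Cenpx* (0.28 ± 0.19 and 0.04 ± 0.19) had the smallest changes with vehicle and were not called. Of 14 spindle checkpoint and error correction genes, 11 rose in each comparison and none fell. *Aurkb*, the kinase of the passenger complex, changed by 7.15 ± 0.80 with vehicle and 7.56 ± 0.81 with NSC, and *Bub1* by 6.83 ± 0.80 and 7.66 ± 0.80. *Mad2l1bp* (0.18 ± 0.22 and 0.44 ± 0.22) and *Mad1l1* (0.48 ± 0.20 and 0.04 ± 0.20) had the smallest changes with vehicle and were not called. None of the 25 was called in NSC against vehicle, where 2 of the 11 and 3 of the 14 were higher and 1 of the 14 lower at an unadjusted p under 0.05 in edgeR. By that rule 9.30% of all genes tested were higher.

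The position of the members gave a comparison that their choice did not use. For 15 members another gene of the table started within 1000 bases on the opposite strand, and 13 of these 15 neighbours were tested. With vehicle, 2 of the 13 rose, where 5.03% of all genes tested were called higher. *Prr11*, which starts 526 bases from *Ska2*, changed by 7.70 ± 1.03 (adjusted p = 0.0015), and *Nusap1*, a spindle protein gene whose start overlaps that of *Oip5* by 171 bases, by 6.59 ± 1.01 (adjusted p = 0.00397). The same 2 rose with NSC (8.81 ± 1.02 and 7.89 ± 1.03), where 5.38% of all genes were called higher.

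The other 11 neighbours, of which 10 are given here, were not called in either comparison, although 7 of their partners rose with vehicle. *Mrpl57*, a mitochondrial ribosome gene that starts 49 bases from *Ska3*, changed by 0.04 ± 0.20, and *Tatdn3*, 80 bases from *Nsl1*, by −0.15 ± 0.21. *Rpl4* beside *Zwilch* changed by 0.10 ± 0.18, *Cmc2* beside *Cenpn* by 0.61 ± 0.26, *Nol8* beside *Cenpp* by 0.84 ± 0.19, *Ppwd1* beside *Cenpk* by 0.51 ± 0.20, and *Mut* beside *Cenpq* by −0.47 ± 0.15. The neighbours *Derl2* (−0.46 ± 0.17), *Ptrhd1* (−0.00047 ± 0.19) and the noncoding *Gm17518* (−0.06 ± 0.37) stood beside *Mis12*, *Cenpo* and *Mis18a*, which were not called with vehicle either. By the edgeR adjusted p alone, *Nol8* was higher with vehicle (adjusted p = 0.00829) and with NSC (1.08 ± 0.19, adjusted p = 0.00154). With NSC, *Ppwd1* (0.80 ± 0.20, adjusted p = 0.00891) and *Cmc2* (0.89 ± 0.26, adjusted p = 0.0197) were higher too. *Mut* was lower with vehicle (adjusted p = 0.0356). By that rule 12.7% of all genes were higher with vehicle and 18.2% with NSC. The median of the 13 was 0.10 with vehicle and 0.20 with NSC. *Mettl4-ps1* beside *Ndc80* and *Trpm8* beside *Hjurp* were too low to test.

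**Figure D5:**
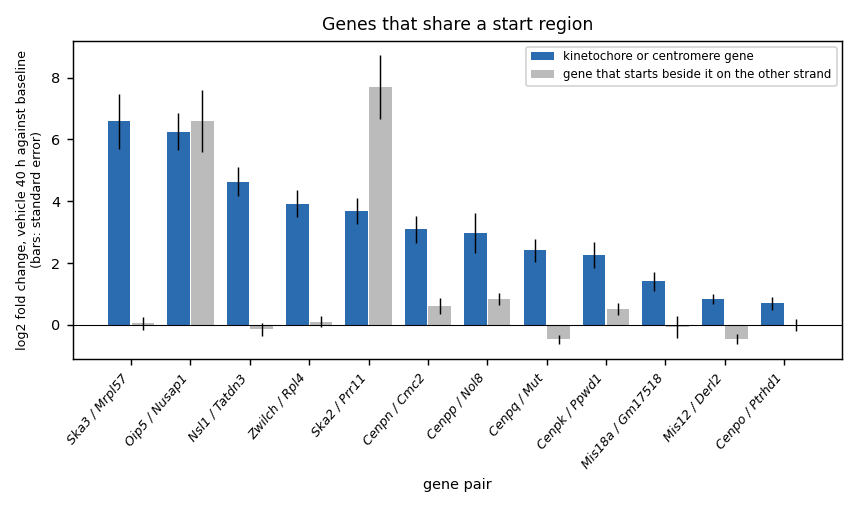
Log2 fold change with vehicle at 40 h against baseline for 12 members (blue bars) and for the gene that starts within 1000 bases of each on the other strand (gray bars), with standard errors. Only *Nusap1* (6.59) and *Prr11* (7.70) match or exceed the height of the member beside them.

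The counts of some members could hold reads of other genes. Exons of 11 members overlapped an exon of a gene on the opposite strand in GENCODE M21, most for *Cenpo* with *Adcy3* (19.0% of its exon bases), *Cenpp* with *Ippk* (12.3%), *Ska2* with *Gm11491* (10.1%) and *Oip5* with *Nusap1* (9.67%). Over the 9 libraries *Adcy3* had 371 counts, *Ippk* 2956, *Gm11491* 0 and *Nusap1* 6499. Smaller overlaps included *Mis12* with *Derl2* (7.69%, 21855 counts), *Cenpq* with *Mut* (3.65%, 43337 counts) and *Ska3* with *Sap18* (2.88%, 7658 counts). The strand setting of the counting is not given in the sources used here, so values of these pairs are uncertain to that extent. *Oip5* and *Nusap1* both rose, and most of the exon bases of *Oip5* lie outside the overlap. The longest transcript of *Cenpw* holds a stretch of 204 to 345 bases at 95% identity or more to transcripts of 14 other genes, 5 of them in the opposite orientation, so its level is uncertain too, and *Ska2* has a near-identical stretch in the pseudogene *Ska2l-ps*, which had 1 count over the 9 libraries.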

How the data were processed

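Bulk RNA-Seq was read from 9 libraries in 3 groups of 3. Per the methods and processing notes, the authors ran MAP-RSeq, in which STAR 2.6.1 mapped the reads, and assigned them to genes with featureCounts of Subread 1.5.1. The notes name the human build hg38, but the deposited table holds mouse genes: 42462 of 43346 identifiers are in GENCODE M21 (GRCm38), and 22 of 34 members have the same coordinates there. The deposited counts are raw. The deposited FPKM values were made by the authors from these counts, gene length plus 1 and the library total (largest relative difference on recomputing 4.96e-10 above 1 FPKM).

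The main test used edgeR 4.0.16 under R 4.3.3, with TMM factors, filterByExpr, and 1 robust quasi-likelihood fit of all 9 libraries with group as the only term. The standard error is the absolute log2 fold change over the square root of F. Adjusted p-values are Benjamini-Hochberg values over 15024 genes. DESeq2 1.42.0, other normalizations and filters, a GC correction (loess, span 0.5), a replicate term and leaving out each library were alternatives. The fit was also run on counts simulated from its own dispersions, with changes added only to vehicle against baseline. Such a run follows the model and cannot show how it holds for the unlike NSC-treated livers. Count ratios have exact binomial 95% intervals for counting error only. Transcript similarity was searched with BLAST (at least 95% identity over 200 bases). Figures and lists were made in Python 3.11.15. Depth was 23997363 to 42887589 counts per library.

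Members and gene lists were chosen with earlier results of these data known. All members are reported, with full statistics for the largest and smallest change of each complex and for members with an unadjusted p under 0.05 in NSC against vehicle. Per-liver values are given for the 2 members with the highest FPKM in each complex, and the head-to-head neighbours are named. The values of 1 neighbour and of 1 further kinetochore gene are not reported here, and both are in the counts and medians. No test was run over a gene set.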

Additional observations from a re-analysis of the deposited data

How the results depend on the processing

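Counts of called genes stayed within 1.5 times the reported ones under both other normalizations, DESeq2, the likelihood ratio test, the GC correction and fits of 2 groups. The exception was a filter of at least 10 counts in every library, which removes genes that are nearly silent at baseline and left 12925 genes. Of the 22 members then tested, 13 were called with vehicle (median 2.55) and 16 with NSC. For the further kinetochore genes these counts were 1 and 2, and for the checkpoint genes 3 and 3. How many genes of these lists passed the filter is not given here. The share of all genes called under it was not computed, so these counts have no background beside them. With each library left out in turn, the vehicle median was 3.11 to 3.36, and in NSC against vehicle 0 to 4 members, 0 to 2 further kinetochore genes and 0 to 3 checkpoint genes were called, all of these without NSC replicate 1. DESeq2 gave 4 members an adjusted p under 0.05 there, where 1.90% of all genes were higher by that rule, and the likelihood ratio test none, where 0.825% were. Scaling by library size alone moved the median of all genes in that comparison to 0.14 and that of the members to 0.91.

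*Cenpa* with vehicle lost its call with a replicate block (adjusted p = 0.0526) and without vehicle replicate 1 or any baseline replicate (0.0571 to 0.0718), at a log2 fold change of 3.09 to 3.20, *Birc5* without baseline replicate 3 (0.0516, at 3.77), and *Mis18a* gained one without baseline replicate 1 (1.56). *Spc24* with NSC lost its call with no filter on low counts, with the block, in the fit of 2 groups, and without each baseline replicate, vehicle replicate 1, NSC replicate 2 or NSC replicate 3 (log2 fold change 1.19 to 1.80). *Cenpl* with NSC lost it under the GC correction without (1.49) and with the block (1.345). The cause was not tested. The correlations of deviations overlapped between same-number pairs of livers (−0.05 to 0.13 over 9 pairs) and other pairs (−0.12 to 0.07 over 18). They cannot decide whether replicate numbers pair the livers. With the replicate block 24 members were called with vehicle, and the NSC against vehicle median was 0.66. With the block and the GC correction together that median was 0.47, the lowest of the settings, with 29 of 34 members higher.

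Some signs turned. *Zwint* was −0.04 (−0.037146 and −0.037471) with vehicle and −0.04 (−0.037369 and −0.038915) with NSC under the GC correction without and with the block, and −0.00022 and −0.0014 between treatments. *Pmf1* between treatments was −0.016, −0.0050 and −0.078 under the block, the GC correction and both. *Cenpm* was −0.0021 with no filter, −0.14 under the block and −0.0067 in the fit of 2 groups, *Cenpt* −0.092 under the block, *Cenpw* −0.026 under the block with GC correction, and *Cenpo* 0.020 with library size only. With libraries left out, *Pmf1* ranged from −0.058 to 0.36 with vehicle, −0.14 to 0.54 with NSC and −0.31 to 0.37 between treatments, and between treatments *Cenpm* from −0.29 to 0.38, *Cenpt* from −0.36 to 0.37, *Incenp* from −0.037 to 0.88 and *Hjurp* from −0.084 to 0.41.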
